A study of Solanum lycopersicum with 27 samples.

Results

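The galactinol synthases of tomato (Solanum lycopersicum, cultivar Moneymaker) were followed here at 2 loci, Solyc01g079170.3, named GolS1, and Solyc02g084980.3, named GolS2, out of 34688 loci in the table of counts. They were chosen by identifier as enzymes at the entry to raffinose synthesis, not by a rule on their measured values. Earlier results of these data were known when they were chosen. By the convention of these identifiers they lie on chromosomes 1 and 2. The names came with the choice of the loci, since the count table holds identifiers only. Both loci passed the filter on low counts and were among the 19087 loci tested.

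Galactinol synthase joins the galactose of UDP-galactose to myo-inositol and so makes galactinol. Galactinol then donates galactose to sucrose to give raffinose, and to raffinose to give stachyose. These soluble sugars are known from seeds, from the phloem of some species and from leaves under cold, salt or drought, and in Arabidopsis several galactinol synthase genes are known for transcripts that increase under such stress.

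Leaves came from wild-type plants that either had water withheld completely (labelled water deficit) or were watered every second day to soil capacity (labelled control), from an age of 50 days. All plants had 16 h of light and 8 h of dark. Mature leaves, sampled as a leaflet each, were taken 4, 5, 8 and 10 days after watering stopped, and whole developing leaves, called young here, at day 10. The labelled water deficit groups held 3 libraries each, except 2 at mature day 8. The labelled control groups held 3 libraries each, except 2 at mature day 8 and 2 at mature day 10. Nothing in the labels says whether replicate libraries came from separate plants, so p-values measure the spread between these libraries, which may be technical. Each day was a separate collection, so a batch by day cannot be told apart from day within an arm, while the arms are compared within a day.

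Totals ran from 14725924 to 19642202 counts per library. Levels are given as CPM, counts scaled to a common library total after TMM normalization. Replicate 1 of the mature day 10 group labelled water deficit stood apart. On the log2 CPM scale it correlated at r of 0.993 to 0.994 with the 2 day 10 control libraries and at 0.884 to 0.888 with the other 2 libraries of its own group. It stayed in the group its label gives, and tests are shown both with and without it. It was singled out by its measured levels, known from earlier work on these data. Leaving it out removes deficit values near the controls, so p-values without it are not independent support for a difference between the arms. The defining markers of leaf tissue were not checked, because 0 of the identifiers could be paired with names. Over days, 49.3% of loci changed in mature leaf labelled deficit and 75.1% in mature leaf labelled control (edgeR's quasi-likelihood test, Benjamini-Hochberg adjusted p below 0.05).

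GolS2 was lower in the libraries labelled water deficit than in those labelled control on every day and at both leaf ages, with the exception of the replicate that stood apart. In mature leaf its mean in the deficit arm was 0.493 of the control mean at day 4, 0.211 at day 5 and 0.0455 at day 8. For GolS1 the same ratios were 0.689, 0.516 and 0.639. This direction is opposite to the one for which galactinol synthase genes are known under drought, and whether the arm labels hold was not tested. Every fold change below is that of libraries labelled deficit relative to libraries labelled control. The plot of CPM by library shows both loci.

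**Figure D1:**
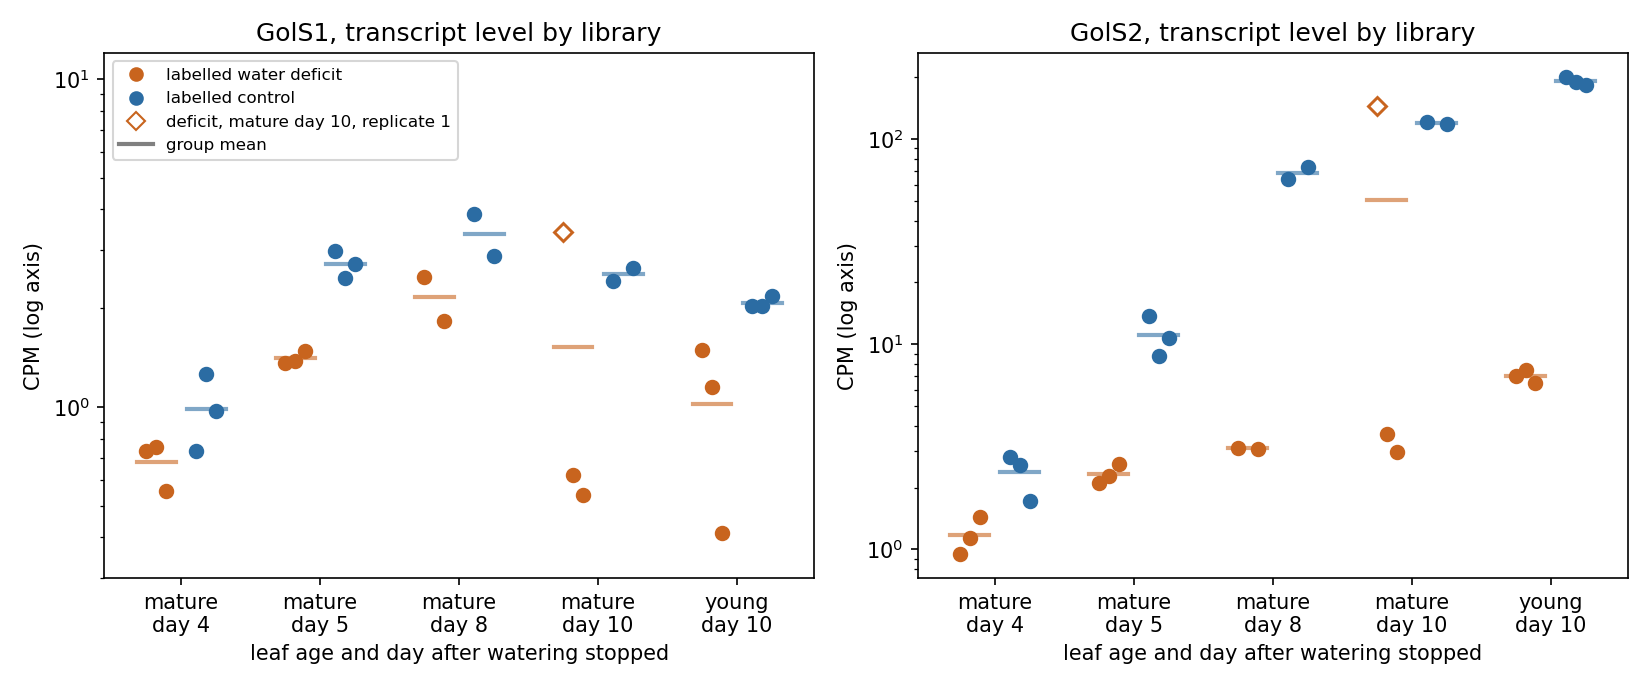
CPM of GolS1 (left) and GolS2 (right) on log axes in each library, by leaf age and day, with libraries labelled water deficit in orange left of those labelled control in blue and bars at group means. GolS2 in mature control libraries lies between 1.72 and 2.83 CPM at day 4 and reaches 118.3 and 120.6 CPM at day 10, and the open diamond, deficit replicate 1 of mature day 10, lies at 145.1 CPM.

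At day 4, GolS2 stood at 0.945, 1.13 and 1.44 CPM in mature leaf labelled deficit, against 2.83, 2.58 and 1.72 CPM in mature leaf labelled control. The groups did not overlap, although these values rest on 18 to 54 counts per library. At day 5 the levels were 2.09, 2.28 and 2.60 CPM in the deficit libraries, against 13.7, 8.74 and 10.7 CPM in the control libraries. The lowest control library was thus well above the highest deficit library. At day 8 GolS2 had 3.12 and 3.09 CPM in the deficit libraries, against 63.6 and 72.9 CPM in the control libraries.

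At day 10 the mature libraries labelled deficit had 145.1, 3.63 and 2.97 CPM of GolS2 in replicates 1, 2 and 3, against 120.6 and 118.3 CPM in those labelled control. Replicate 1 lay above both control libraries, and the other 2 lay far below them. In young leaf the levels were 7.02, 7.52 and 6.48 CPM in the deficit libraries, against 201.0, 189.3 and 182.6 CPM in the control libraries. Replicates of young leaf were close together in both arms, with 7.01 ± 0.521 CPM (SD, n = 3) where labelled deficit and 191.0 ± 9.33 CPM (SD, n = 3) where labelled control. In bulk leaf RNA, fewer cells that express a gene and less RNA per cell cannot be told apart.

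With all 27 libraries, GolS2 was called lower in the deficit arm in 2 of 5 comparisons. At mature day 8 the log2 fold change was -4.45 (SE 1.17, adjusted p = 0.00274), a 21.9-fold lower level where 32.5% of all loci were called lower. In young leaf it was -4.77 (SE 0.93, adjusted p = 0.000173), 27.2-fold lower, where 35.2% of loci were called lower. GolS2 ranked 193rd from the lowest fold change of 19087 loci in both of these comparisons. The differences at mature days 4, 5 and 10 were -1.02 (SE 1.23, adjusted p = 0.637), -2.25 (SE 0.98, adjusted p = 0.0968) and -1.24 (SE 0.85, adjusted p = 0.256), where 6.48%, 13.2% and 12.4% of loci were called lower.

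The standard errors of GolS2 carry the distance of replicate 1 from its group, because all groups share the spread in the fit. Over 8 comparisons of 2 or 4 groups they ran from 0.85 to 1.26 with all libraries and from 0.10 to 0.23 without that replicate. Without it, GolS2 was called lower in 5 of 5 comparisons of the arms. The log2 fold changes in mature leaf were then -1.03 on day 4 (SE 0.23, adjusted p = 0.00101), -2.26 on day 5 (SE 0.16, adjusted p = 3.3e-13), -4.44 on day 8 (SE 0.16, adjusted p = 1.34e-20) and -5.16 on day 10 (SE 0.16, adjusted p = 2.92e-22). The share of all loci called lower in that fit was 16%, 21.8%, 34.8% and 29.8% on these days. In young leaf the value was -4.77 (SE 0.12, adjusted p = 4.26e-25), with 37.3% of loci called lower.

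**Figure D2:**
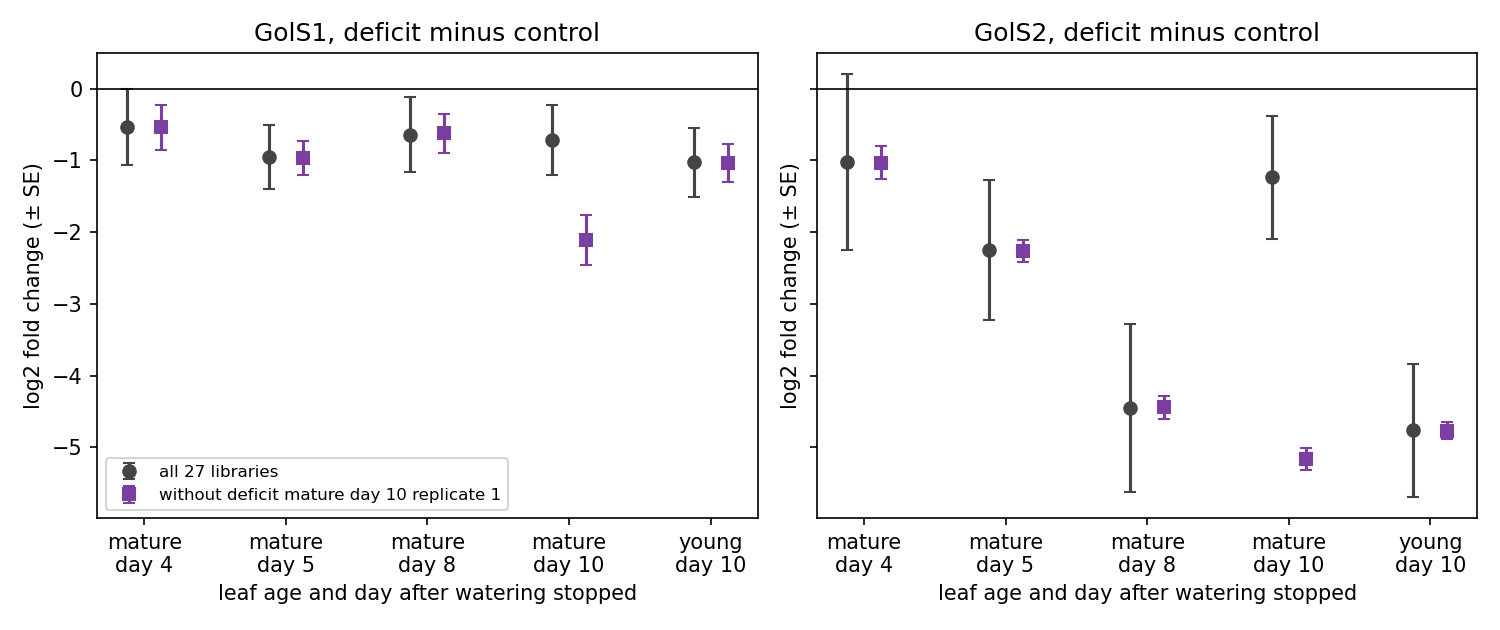
Log2 fold change of GolS1 (left) and GolS2 (right) between libraries labelled water deficit and those labelled control in each leaf age and day, with standard errors, from all 27 libraries (circles) and without deficit mature day 10 replicate 1 (squares). All values lie below 0, and leaving out that replicate moves GolS2 at mature day 10 from -1.24 to -5.16.

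GolS1 was measured at low depth, with 7 to 65 counts per library and 860 counts in all. At day 4 it had 0.735, 0.755 and 0.553 CPM in mature leaf labelled deficit, against 0.734, 1.26 and 0.969 CPM in mature leaf labelled control. These groups overlapped. At day 5 the levels were 1.36, 1.38 and 1.48 CPM in the deficit libraries, against 2.99, 2.46 and 2.72 CPM in the control libraries, with no overlap. At day 8 GolS1 had 2.49 and 1.82 CPM in the deficit libraries, against 3.86 and 2.89 CPM in the control libraries, again with no overlap but with a narrow gap.

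At mature day 10, GolS1 had 3.42, 0.621 and 0.539 CPM in replicates 1, 2 and 3 labelled deficit, against 2.41 and 2.66 CPM in the libraries labelled control. As for GolS2, replicate 1 lay above the control libraries and the other 2 below them. In young leaf GolS1 had 1.49, 1.15 and 0.412 CPM in the deficit libraries, against 2.03, 2.03 and 2.19 CPM in the control libraries. The lowest of these, deficit replicate 3, rests on 7 counts, for which counting error alone allows 0.166 to 0.849 CPM (exact 95% Poisson interval). Such intervals cover counting error only, since reads are not independent molecules.

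With all libraries, GolS1 was called in 0 of the 5 comparisons of the arms by edgeR's quasi-likelihood test, where the shares of loci called lower were 6.48% to 35.2%. Of the 5, 2 had an unadjusted p under 0.05, at mature day 5 (0.0458) and in young leaf (0.0429). At least the 13.2% and 35.2% of all loci called lower in these comparisons had one too. The log2 fold changes in mature leaf were -0.53 on day 4 (SE 0.53, adjusted p = 0.561), -0.95 on day 5 (SE 0.45, adjusted p = 0.122), -0.64 on day 8 (SE 0.52, adjusted p = 0.284) and -0.71 on day 10 (SE 0.49, adjusted p = 0.254). Young leaf gave -1.03 (SE 0.48, adjusted p = 0.0592). DESeq2 also called 0 of these 5. Without replicate 1 of the mature day 10 deficit group, GolS1 was called lower in 4 of 5, where 21.8%, 34.8% and 29.8% of all loci were called lower at mature days 5, 8 and 10 and 37.3% in young leaf. The values were then -0.97 on day 5 (SE 0.24, adjusted p = 0.00132), -0.62 on day 8 (SE 0.27, adjusted p = 0.0375), -2.11 on mature day 10 (SE 0.35, adjusted p = 4.7e-06) and -1.03 in the young leaf (SE 0.27, adjusted p = 0.000905), while day 4 stayed at -0.54 (SE 0.32, adjusted p = 0.206).

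The CPM of the groups did not overlap for GolS2 in 4 of 5 and for GolS1 in 3 of 5 combinations of leaf age and day, each time with the deficit libraries lower. Over all tested loci, the share lower with no overlap was 22.5%, 25%, 41.9% and 14.8% in mature leaf over the 4 days and 38.1% in young leaf. Without replicate 1 of the deficit group the mature day 10 groups did not overlap either at GolS1 or at GolS2, where 38.6% of loci were lower with no overlap. Separation of the arms was thus common among all loci.

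A two-sided test with the arm labels exchanged within each leaf age and day used no shared spread. By this exact permutation test the mean difference of log2 CPM over the 5 combinations, deficit minus control, was -3.12 for GolS2 (p = 0.000121) and -0.85 for GolS1 (p = 0.000742), over 480000 labelings of the 27 libraries. Without replicate 1 of the mature day 10 deficit group these differences were -3.49 (p = 6.94e-06) and -1.01 (p = 2.08e-05), by the same exact permutation test over 288000 labelings. That p of GolS2 is the smallest that these labelings allow, reached once the deficit library above the controls was left out. The library was left out for its likeness to the controls, so neither p without it is independent support for a difference. The difference was negative in 5 of 5 combinations for both loci. Neither that count nor the permutation test was made at other loci, so how many of them would give such results is not known.

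Over days, GolS2 changed most in mature leaf labelled control. It averaged 2.38 ± 0.580 CPM on day 4 (SD, n = 3), 11.04 ± 2.48 CPM on day 5 (SD, n = 3), 68.2 ± 6.58 CPM on day 8 (SD, n = 2) and 119.5 ± 1.58 CPM on day 10 (SD, n = 2). The change over these 4 days was called by edgeR's quasi-likelihood test (adjusted p = 0.000281, where 75.1% of loci were called), and also without replicate 1 of the deficit group (adjusted p = 3.46e-25, 81.2% of loci called). By day 10 it was 50.1-fold above day 4, or 5.65 on the log2 scale (SE 1.04, adjusted p = 0.00026, 23.1% of loci called higher). Without replicate 1 of the deficit group the value was also 5.65 (SE 0.14, adjusted p = 1.19e-24). There GolS2 ranked 113th from the highest fold change of 19072 loci, and the share called higher is not given.

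Taken step by step without replicate 1 of the deficit group, GolS2 in the control arm rose at each step. The log2 fold changes were 2.22 between days 4 and 5 (SE 0.15, adjusted p = 5.4e-13), 2.61 between days 5 and 8 (SE 0.12, adjusted p = 6.55e-18) and 0.82 between days 8 and 10 (SE 0.11, adjusted p = 2.12e-06). The shares of loci called higher were 17.9%, 29.7% and 19.5% at these steps. With all libraries the steps were 2.21 (adjusted p = 0.12), 2.63 (adjusted p = 0.0215) and 0.81 (adjusted p = 0.59), where 9%, 24.7% and 11.3% of loci were called higher.

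In mature leaf labelled deficit, the course of GolS2 depended on replicate 1 of day 10. It averaged 1.17 ± 0.249 CPM on day 4 (SD, n = 3), 2.33 ± 0.255 CPM on day 5 (SD, n = 3), 3.10 ± 0.0187 CPM on day 8 (SD, n = 2) and, without replicate 1, 3.30 ± 0.469 CPM on day 10 (SD, n = 2). With replicate 1 the day 10 mean was 50.5 ± 81.8 CPM (SD, n = 3). The change over days was called with that replicate (adjusted p = 0.000265, 49.3% of loci called) and without it (adjusted p = 8.87e-06, 64.6% of loci called). Without it, GolS2 rose between days 4 and 5, by 0.98 on the log2 scale (SE 0.23, adjusted p = 0.00194), where 12.6% of loci were called higher. With all libraries that step was also 0.98, but did not pass (SE 1.24, adjusted p = 0.737). Without replicate 1 the later steps were 0.43 between days 5 and 8 (SE 0.21, adjusted p = 0.118, 16.3% of loci called higher) and 0.11 between days 8 and 10 (SE 0.22, adjusted p = 0.784). With replicate 1, that last step was 4.03 (SE 1.12, adjusted p = 0.0186, 8.93% of loci called higher), a value that the replicate alone carries. With it, day 10 stood above day 4 by 5.43 on the log2 scale (SE 1.07, adjusted p = 0.000832), near the 5.65 of the control arm. Without it, day 10 stood above day 4 by 1.52 (SE 0.24, adjusted p = 7.78e-06). GolS2 ranked 78th and 290th from the highest fold change in these fits, of 19087 and 19072 loci. The share of loci called higher is not given for them.

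GolS1 in mature leaf labelled control averaged 0.988 ± 0.264 CPM on day 4 (SD, n = 3), 2.72 ± 0.262 CPM on day 5 (SD, n = 3), 3.38 ± 0.687 CPM on day 8 (SD, n = 2) and 2.54 ± 0.173 CPM on day 10 (SD, n = 2). The change over days was called (adjusted p = 0.0166), as it was for 75.1% of all loci. It was not called without control day 4 replicate 1 (adjusted p = 0.0867) or replicate 3 (adjusted p = 0.0583). The rise came between days 4 and 5, by 1.46 on the log2 scale (SE 0.46, adjusted p = 0.0324, 9% of loci called higher) and the same value without replicate 1 of the deficit group (SE 0.25, adjusted p = 2.2e-05, 17.9% of loci called higher). Between days 5 and 8 the value was 0.31 (SE 0.47, adjusted p = 0.602), and between days 8 and 10 it was -0.41 (SE 0.52, adjusted p = 0.616). Without replicate 1 of the deficit group these 2 steps did not pass either (adjusted p = 0.292 and 0.24).

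GolS1 in mature leaf labelled deficit averaged 0.681 ± 0.111 CPM on day 4 (SD, n = 3), 1.41 ± 0.0617 CPM on day 5 (SD, n = 3) and 2.16 ± 0.476 CPM on day 8 (SD, n = 2). At day 10 it averaged 0.580 ± 0.0576 CPM (SD, n = 2) without replicate 1 and 1.53 ± 1.64 CPM (SD, n = 3) with it. The change over days missed the threshold with all libraries (adjusted p = 0.073, 49.3% of loci called) and passed it without replicate 1 (adjusted p = 2.68e-05, 64.6% of loci called). With all libraries, day 8 stood above day 4 by 1.65 on the log2 scale (SE 0.54, adjusted p = 0.0287). GolS1 ranked 179th from the highest of 19087 loci there, and the share called higher is not given. Without replicate 1, day 8 stood above day 4 by 1.67 (SE 0.30, adjusted p = 5.89e-05), where 22.4% of loci were called higher. From day 8 to day 10 it fell by 1.87 on the log2 scale (SE 0.35, adjusted p = 0.000161), where 12.5% of loci were called lower, and the difference between days 10 and 4 was -0.21 (SE 0.40, adjusted p = 0.699). With replicate 1 the sign of that difference turned, to 1.18 (SE 0.51, adjusted p = 0.0742). The fall to day 10 rests on 2 libraries with 13 and 8 counts, and with replicate 1 the step was -0.48 (SE 0.50, adjusted p = 0.548).

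The dependence of the arms difference on day was tested in mature leaf by 3 interaction terms. Using every library, it was called at neither locus (adjusted p = 0.944 for GolS1 and 0.195 for GolS2, joint quasi-likelihood test, with 57% of loci called). Without replicate 1 of the deficit group it was called at both, with an adjusted p of 0.015 for GolS1 and 2.14e-13 for GolS2, where 73.6% of loci were called. In that fit the GolS2 terms, each the log2 arms difference of a day minus that of day 4, were -1.23 for day 5 (SE 0.30, adjusted p = 0.00208), -3.41 for day 8 (SE 0.31, adjusted p = 1.07e-10) and -4.13 for day 10 (SE 0.32, adjusted p = 3.11e-12). Over all loci, 11.6%, 30.7% and 25.4% had a term called lower on these days. For GolS1 the same terms were -0.43 for day 5 (SE 0.40, adjusted p = 0.48), -0.09 for day 8 (SE 0.43, adjusted p = 0.873) and -1.57 for day 10 (SE 0.48, adjusted p = 0.00701). With all libraries none of these terms passed edgeR's quasi-likelihood test, and none had an unadjusted p under 0.05. The GolS2 terms were then -1.23 for day 5 (adjusted p = 0.704), -3.43 for day 8 (adjusted p = 0.0937) and -0.22 for day 10 (adjusted p = 0.936). Those of GolS1 were -0.42, -0.11 and -0.18 (adjusted p = 0.771, 0.916 and 0.88). The size of the day 10 terms thus rests on leaving out replicate 1. The 3 terms of a locus share the day 4 libraries.

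Leaf age was compared at day 10. Mature samples were a leaflet each and young samples whole developing leaves, so age cannot be told apart from the part of the leaf sampled. This holds for every comparison of young with mature leaf below. Among libraries labelled deficit, young leaf had 7.01 ± 0.521 CPM of GolS2 (SD, n = 3), against 3.30 ± 0.469 CPM in mature leaf without replicate 1 (SD, n = 2). Young was higher, by 1.05 on the log2 scale (SE 0.18, adjusted p = 1.73e-05, 21.2% of loci called higher). With replicate 1 among the mature libraries the sign turned, to -2.85 (SE 0.88, adjusted p = 0.0145, 20.7% of loci called lower). GolS1 among libraries labelled deficit averaged 1.02 ± 0.552 CPM in young leaf (SD, n = 3), against 0.580 ± 0.0576 CPM in mature leaf without replicate 1 (SD, n = 2), a log2 difference of 0.77 (SE 0.38, adjusted p = 0.103). With replicate 1 that difference was -0.60 (SE 0.49, adjusted p = 0.342).

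Among libraries labelled control, young leaf had 191.0 ± 9.33 CPM of GolS2 (SD, n = 3), against 119.5 ± 1.58 CPM in mature leaf (SD, n = 2). The log2 fold change was 0.68 (SE 0.88, adjusted p = 0.654, 9.54% of loci called higher) with all libraries in the fit. It was 0.66 (SE 0.10, adjusted p = 7.59e-06, 17.8% of loci called higher) without the deficit replicate 1, which is in neither of these groups but enters the shared spread. GolS1 averaged 2.08 ± 0.0918 CPM in young leaf (SD, n = 3), against 2.54 ± 0.173 CPM in mature leaf (SD, n = 2), a log2 difference of -0.29 (SE 0.48, adjusted p = 0.738) with all libraries and -0.30 (SE 0.25, adjusted p = 0.378) without the deficit replicate 1.

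The difference between the arms was set against leaf age as an interaction at day 10, young minus mature. For GolS2 it was -3.53 on the log2 scale (SE 1.26, adjusted p = 0.064, 15% of loci called) with all libraries and 0.39 (SE 0.21, adjusted p = 0.191, 21.6% of loci called) without replicate 1. For GolS1 it was -0.32 (SE 0.69, adjusted p = 0.791) with all libraries and 1.07 (SE 0.45, adjusted p = 0.0928) without it. The sign of this interaction therefore turned at both loci with replicate 1, and a difference between leaf ages in the response was not called in either fit.

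The balance of the 2 loci was read as the GolS2 count over the GolS1 count within a library. Transcript lengths were not used, so the ratio compares libraries and not the levels of the loci. In mature leaf labelled deficit it was 1.29 to 2.60 on day 4, 1.54 to 1.76 on day 5 and 1.25 to 1.70 on day 8, and replicates 2 and 3 of day 10 had 5.85 and 5.50. In mature leaf labelled control it was 1.78 to 3.86 on day 4, 3.55 to 4.57 on day 5, 16.5 to 25.2 on day 8 and 44.5 to 50.0 on day 10. The ratio of deficit replicate 1 at mature day 10 was 42.4, close to the control libraries of that day. Young leaf had ratios of 4.71 to 15.7 where labelled deficit and 83.6 to 99.2 where labelled control. Some of these ratios rest on few GolS1 counts. Young deficit replicate 3, with the ratio of 15.7, had 7, and mature day 10 deficit replicates 2 and 3 had 13 and 8.

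**Figure D3:**
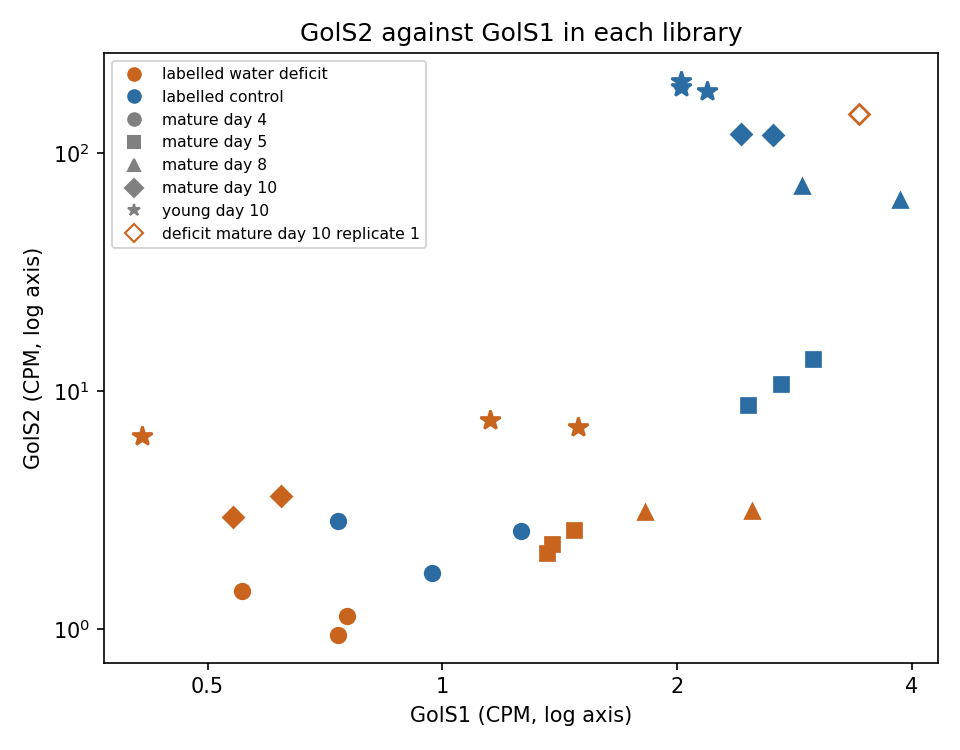
CPM of GolS2 against CPM of GolS1 in each of the 27 libraries, both on log axes, with colour for the arm and symbol for leaf age and day. GolS1 spans 0.412 to 3.86 CPM and GolS2 0.945 to 201.0 CPM, and the late control libraries and deficit mature day 10 replicate 1 (open diamond) lie above the rest in GolS2.

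The order of the 10 group means, leaving replicate 1 out of the mature deficit group at day 10, ran differently at the 2 loci. For GolS2 the order from the top was young control at 191.0 CPM, mature control at day 10, at day 8 and at day 5, young deficit at 7.01 CPM, mature deficit at day 10 and at day 8, mature control at day 4, and mature deficit at day 5 and at day 4, the lowest at 1.17 CPM. Neighbours in this order overlapped at 2 places, between mature deficit at days 10 and 8 and between mature control at day 4 and mature deficit at day 5. For GolS1 the order began with mature control at day 8, at 3.38 CPM, day 5 and day 10, and then held mature deficit at day 8, young control, mature deficit at day 5, young deficit, mature control at day 4, mature deficit at day 4 and mature deficit at day 10, the lowest at 0.580 CPM. All neighbours in the GolS1 order overlapped, except young control and mature deficit at day 5, with 7 to 65 counts of GolS1 per library. Each order was sorted from the values it describes, and overlap of neighbours at other loci was not counted.

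The loci whose pattern was most like each member were sought by Pearson's r of log2 CPM over the 27 libraries, among loci with a mean log2 CPM of at least 3. These libraries share days and arms, so r is a description and carries no p. For GolS2 the highest r was 0.990, at Solyc08g079240.4, and 407 of 12111 loci had r of at least 0.9. The lowest was -0.981, at Solyc12g019410.3. Solyc08g079240.4 had 39.8 ± 1.25 CPM (SD, n = 2) at mature day 8 labelled deficit and 98.2 ± 4.50 CPM (SD, n = 2) labelled control. It thus followed the order of GolS2 with a smaller span.

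For GolS1 the highest r was 0.891, at Solyc02g069670.4, and 0 of 12112 loci reached 0.9. The lowest was -0.902, at Solyc10g008110.4. The low counts of GolS1 limit how high its r can be. Without replicate 1 of the mature day 10 deficit group the loci at both ends stayed the same for GolS2, whereas for GolS1 the highest r moved to another locus, at 0.887. None of these identifiers could be paired with a name, and no function is given for them.

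**Figure D4:**
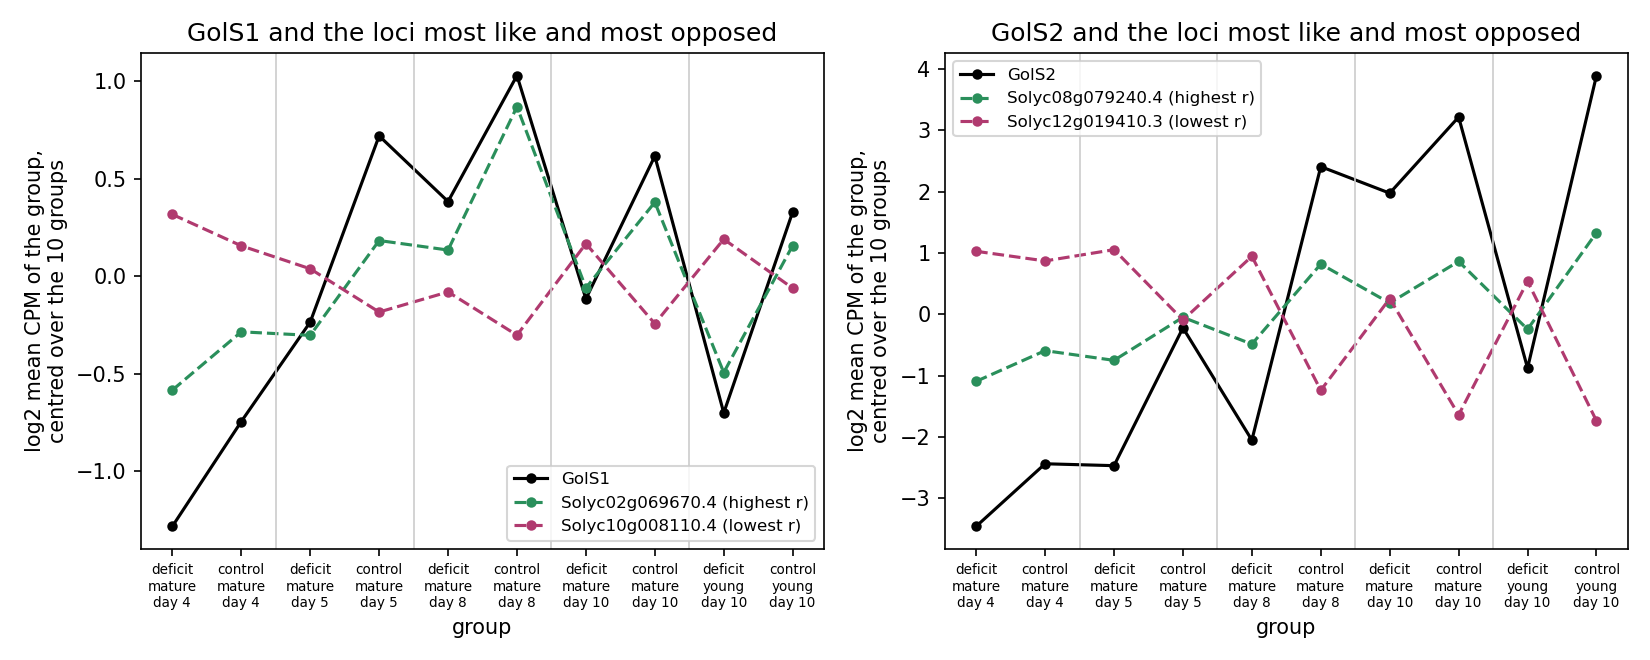
Log2 of the group mean CPM, centred over the 10 groups, for GolS1 (left) and GolS2 (right) in black, with the locus of highest r in green and of lowest r in pink, and deficit left of control in each leaf age and day. The mature day 10 deficit means include replicate 1. The green lines follow the member with a smaller span and the pink lines run broadly opposite, with r of 0.990 and -0.981 for GolS2 and 0.891 and -0.902 for GolS1. The pink locus of GolS2 changed little in mature deficit leaf at days 4, 5 and 8 (49.3, 50.2 and 46.6 CPM).

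Genes of the later steps, such as raffinose synthase, stachyose synthase and alpha-galactosidase, and of myo-inositol synthesis were to be set beside the members. They were not analysed here, because 0 of the 34688 identifiers matched the reference table of names.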

How the data were processed

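Polyadenylated RNA of 27 leaf libraries was sequenced as paired-end reads of 100 nt, per the labels' protocols. The deposited values were raw read counts per locus, taken as such because they are whole numbers with different column totals. DESeq2 is named in the submitters' processing notes. The aligner, counting tool, genome build, annotation and use of strand are not given in the sources used here, so how reads common to similar or overlapping loci were assigned is unknown. Columns were matched to libraries by description, and groups, days and replicates were read from titles.

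The tools were edgeR 4.0.16 and limma 3.58.1, run in R 4.3.3. The filterByExpr function kept 19087 loci, libraries were scaled by TMM (factors 0.943 to 1.07), and all libraries entered a model of the groups, with robust quasi-likelihood dispersions. P-values were adjusted by Benjamini-Hochberg over all tested loci, with calls below 0.05. Standard errors are the log2 fold change over the square root of its F. Log2 CPM used a prior count of 2. The script was tested on simulated data. Alternatives were RLE scaling, DESeq2 1.42.0, no filter, the compared groups alone, a replicate block, a prior count of 0.5, and leaving out libraries. Steps between single days, terms of the interaction taken singly, and the fit of compared groups without replicate 1 of the mature day 10 deficit group were chosen after seeing the data. The other fits without that replicate were planned, with its place among the control libraries known from earlier work on these data.

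The members and lists were chosen with earlier results of these data known. The named loci were the 2 members and, for each, the locus with the highest and the lowest r. The reference table (41476 genes, SLM_r2.1 assembly) matched 0 identifiers. It lists 2 genes under galactinol synthase symbols, on chromosomes 1 and 2, with no link to the identifiers of the counts, so no coordinates and no sequences are given.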

Additional observations from a re-analysis of the deposited data

Results flagged for a closer look

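In mature leaf, the arms difference depended on day at both loci once replicate 1 of the mature day 10 deficit group was left out, by a test of the interaction itself. The adjusted p was 0.015 for GolS1 and 2.14e-13 for GolS2 (edgeR's quasi-likelihood test), in a fit where 73.6% of all loci were called, so that calls at both loci are near the background. With all libraries neither passed (adjusted p = 0.944 and 0.195), and that replicate is the library that correlated more closely with the control libraries of its day.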

How the results depend on the processing

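Of 390 values recomputed for 25 results, 347 kept their direction and their side of the threshold, 31 newly passed it, 3 no longer passed it and 9 changed sign. Shares of all loci called are given above for the fit of all groups without replicate 1 of mature day 10 deficit. For the other settings below they are not given, so those calls have no background beside them. RLE scaling, no filter and the prior count changed no call. DESeq2 gave no adjusted p for GolS2 and passed the GolS1 change over days in the deficit arm (adjusted p = 0.0471). A replicate block passed GolS1 in young leaf (log2 fold change -1.08, adjusted p = 0.0396) and changed no other call. Of 13 same-numbered pairs of libraries, 3 correlated above 0.1 in their deviations (range -0.14 to 0.158), so the numbers were not taken as pairs. When the compared groups alone were fitted, deficit minus control passed for GolS2 at mature day 4 (-1.02) and day 5 (-2.25) and for GolS1 at day 5 (-0.96), day 8 (-0.64) and in young leaf (-1.04), as did GolS2 between leaf ages under control (0.65), while GolS2 between leaf ages under deficit (-2.87, adjusted p = 0.298) no longer passed.

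With the compared groups alone and without deficit replicate 1 of mature day 10, deficit minus control at that day was -2.12 for GolS1 and -5.18 for GolS2, both passing. The interaction with day then passed (adjusted p = 0.00539 and 5.53e-12), as did the GolS1 change over days in the deficit arm (6.65e-05). The leaf age interaction turned to 1.07 for GolS1 and 0.39 for GolS2, and young minus mature under deficit to 0.78 and 1.07. No share of all loci called is given for these fits.

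Leaving out a library at a time (a lone library left in a group was assumed to vary like the other groups), GolS1 ranged in log2 fold change from -0.70 to -0.32 at day 4, -1.02 to -0.90 at day 5, -0.87 to -0.41 at day 8, -2.11 to -0.30 at day 10 and -1.39 to -0.65 in young leaf, where the value without young deficit replicate 1 passed (-1.39, adjusted p = 0.0339). GolS2 ranged from -1.20 to -0.88 at day 4, -2.39 to -2.08 at day 5 and -5.16 to -0.68 at day 10. Its day 8 and young leaf differences passed in every such fit. The leaf age interaction ranged from -0.72 to 1.07 for GolS1, with 0.06 without young deficit replicate 3, and from -4.08 to 0.39 for GolS2, which passed without mature deficit replicate 2 (-4.08, adjusted p = 0.00816) or 3 (-4.08, adjusted p = 0.00782). Young minus mature under deficit ranged from -1.01 to 0.77 for GolS1 and -3.41 to 1.05 for GolS2, and under control from 0.62 to 0.69 for GolS2. Adjusted p ranged from 0.015 to 0.974 (GolS1) and 2.14e-13 to 0.382 (GolS2) for the interaction with day, which for GolS2 passed without mature day 10 deficit replicate 2 (0.045) or 3 (0.0446). It ranged from 2.68e-05 to 0.199 for GolS1 over days under deficit and 3.94e-06 to 0.0867 under control. The cause of these changes was not tested. Without replicate 1 of the mature day 10 deficit group the standard errors were smaller, and the estimates at mature day 10 moved as well. Depth limits GolS1, whose counts were 7 to 65 per library.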
